A study of Mus musculus with 15 samples.

Results

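The genes of the TGF-beta and BMP signaling system were followed in mouse growth plate chondrocytes exposed to LY294002, U0126, SB202190, Trichostatin A or their vehicle, DMSO. The set was a fixed list of 42 genes, chosen by name with earlier results of these data known. It held 13 ligands, 11 receptors and co-receptors, 5 signal-carrying SMADs, 2 inhibitory SMADs, 5 antagonists, 4 latent TGF-beta binding proteins and 2 ubiquitin ligases. Of these, 41 had a probe set on the array, out of 18193 genes with a probe set annotated to them alone, and Gdf6 had none. Where a gene had several probe sets, that of highest average signal across the 15 arrays stood for it.

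Primary chondrocytes were dissected from hind limb cartilage of CD1 mouse embryos at embryonic day 15.5 and kept in monolayer culture. No allele or genotype was varied. The groups were cells treated with LY294002, an inhibitor of PI3K; U0126 (UO126 in the labels), an inhibitor of MEK; SB202190 (SB90 in the labels), which the description of the series places with U0126 and which is widely used against the p38 kinase; Trichostatin A (TSA), an inhibitor of histone deacetylases; and DMSO, the vehicle. Each group had 3 arrays, described as biological replicates. The labels give an exposure of 24 h, whereas the description of the series gives 2 h, and doses were not analysed here. All values are log2 signals, so a difference of 1 means a doubling, and a gene is said to have risen or fallen only where limma gave a Benjamini-Hochberg adjusted p under 0.05 over all probe sets tested. All 41 genes passed the signal filter in every comparison.

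TGF-beta, activin and BMP ligands are secreted dimers that bring type I and type II receptors together on the cell surface. The activated receptors phosphorylate receptor-regulated SMADs, Smad2 and Smad3 for TGF-beta and activin, and Smad1 and Smad5 for BMPs, which enter the nucleus with Smad4. Latent binding proteins hold TGF-beta in the matrix, antagonists such as noggin and follistatin bind ligands outside the cell, and inhibitory SMADs and SMURF ligases restrain the signal inside it. In the growth plate, BMPs are known to promote chondrocyte proliferation and maturation, while TGF-beta is known to hold back hypertrophy.

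The cultures carried the markers of cartilage. All 14 chondrocyte markers lay above the floor of the filter, a signal of 50, in every group, and their mean level over the list was 12.20 to 12.25 in LY294002, 12.18 to 12.40 in U0126, 11.53 to 11.78 in SB202190, 10.13 to 10.67 in Trichostatin A and 11.76 to 11.87 in DMSO arrays. Every one of these 14 markers fell in Trichostatin A, as did 9 of 11 skeletal muscle markers (mean level 6.61 to 6.77, against 7.39 to 8.34 in DMSO), 7 of 10 macrophage markers (6.63 to 6.85, against 7.01 to 7.14) and 9 of 12 fibroblast and perichondrium markers (10.44 to 10.50, against 10.77 to 11.05) that passed the filter. There 2 fibroblast and perichondrium markers, 1 macrophage marker and 1 endothelial marker rose. Over all genes, 22.7% fell and 27% rose in Trichostatin A. With LY294002 4 of the 14 chondrocyte markers rose, against 8.85% of all genes, and all 14 differences were positive with a median of 0.32. There all 11 muscle markers were negative (median -0.28, none past the test in limma and 2 at an unadjusted p under 0.05). With U0126 3 chondrocyte markers rose, against 1.66% of all genes, and all 14 differences were positive, with a median of 0.47. With SB202190 none passed in limma (3 lower at an unadjusted p under 0.05), and 11 of the 14 were negative. Of the 11 endothelial markers, 5 to 7 per group reached the floor. The only marker call in SB202190 against DMSO was 1 macrophage marker that rose. Between inhibitors, 9 of the 14 chondrocyte markers were higher in LY294002 than in SB202190, against 3.81% of all genes. In U0126 8 were higher than in SB202190, against 3.59%. Changes in signaling genes therefore stood beside changes in cell type markers, also between these inhibitors, and the part of those markers in them was not tested. In bulk RNA, fewer cells of a type and less RNA per cell cannot be told apart.

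The 4 inhibitors moved this gene set in different ways. LY294002 raised 12 of the 41 genes and lowered none in limma, with 2 lower at an unadjusted p under 0.05. U0126 raised 4 and lowered 2, SB202190 raised 3 and lowered 3, and Trichostatin A raised 13 and lowered 12. Over all genes read by 1 probe set each, the share that rose was 8.85% in LY294002, 1.66% in U0126, 1.7% in SB202190 and 27% in Trichostatin A, and the share that fell was 2.21%, 1.02%, 1.01% and 22.7% in the same order. Over all probe sets tested, those shares were 6.83%, 1.14%, 1.23% and 23% for a rise, and 1.78%, 0.792%, 0.706% and 20.6% for a fall. Among the signaling genes, 29.3% rose in LY294002, 9.76% in U0126, 7.32% in SB202190 and 31.7% in Trichostatin A, so that the Trichostatin A share lay near that of all genes.

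**Figure D1:**
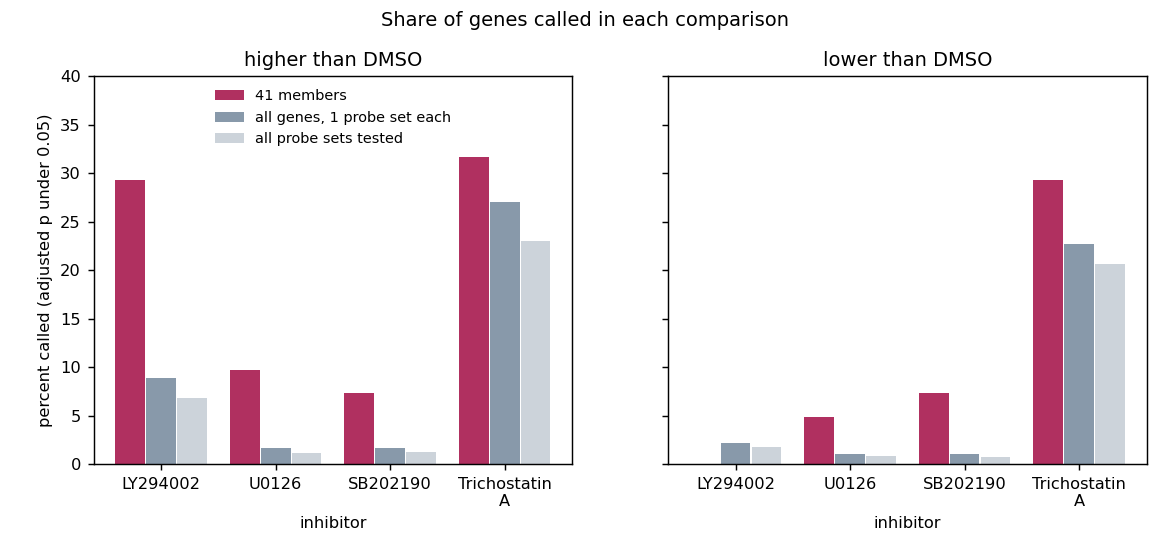
Percent of the 41 signaling genes, of all genes read by 1 probe set each and of all probe sets tested that were higher (left) or lower (right) than DMSO at an adjusted p under 0.05, for each inhibitor. With LY294002, 29.3% of the signaling genes were higher, against 8.85% of all genes, and none was lower.

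The direction was most uneven in LY294002, where 35 of the 41 differences from DMSO were positive and the median difference was 0.24, against 0.01 over all genes. The median was 0.07 in U0126, 0.05 in SB202190 and 0.02 in Trichostatin A. Under quantile normalization the LY294002 median was 0.16, against -0.02 over all probe sets tested. With each array centred on its median, the LY294002 value was 0.29, against 0.03. The median size of a difference, regardless of sign, was largest in Trichostatin A at 0.42, against 0.23 over all probe sets tested. All 4 comparisons used the same DMSO arrays, so they are not independent of each other. Across them, 11 genes were called in no comparison, 17 in 1, 8 in 2, 4 in 3 and 1, Gdf10, in all 4. Gdf10, Ltbp2, Ltbp3, Tgfbr2, Tgfbr3 and Inhba rose with one inhibitor and fell with another. Arrays of LY294002, U0126 and SB202190 deviated together with the DMSO array of the same number. With that number as a block the counts were 21 higher in LY294002, and 5 higher and 6 lower in SB202190. The share of all genes called with the block was not counted, so these block counts have no share to stand against. The genes gained in LY294002 were Nog (adjusted p = 0.0026 with the block), Bambi (0.00439), Smad1 (0.0085), Smad4 (0.0164), Bmp5 (0.0192), Tgfb3 (0.0249), Ltbp4 (0.0373), Bmp2 (0.0382) and Smad7 (0.0409). Those gained in SB202190 were Bmp2 (0.0103) and Smurf1 (0.0387) as higher and Nog (0.00186), Grem1 (0.0062) and Bmp4 (0.0328) as lower, and U0126 gained Bambi (0.00714) and Bmp6 (0.0317) as higher. Without DMSO replicate 2, the number of genes higher in LY294002 was 5, and without DMSO replicate 3 or LY294002 replicate 1 it was 7 or 6.

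**Figure D2:**
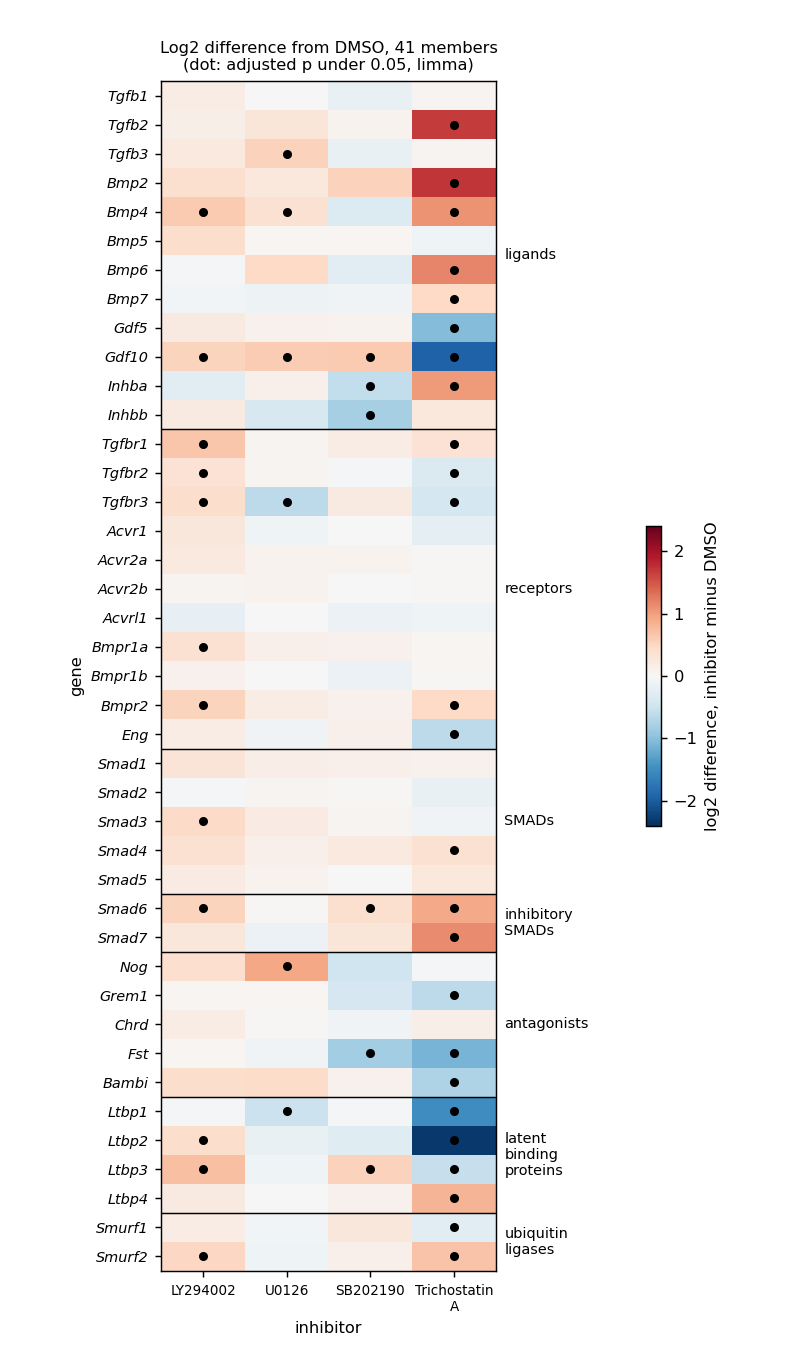
Log2 difference from DMSO of each of the 41 signaling genes (rows, grouped by role) with each inhibitor (columns), from blue for lower to red for higher, with a dot where the adjusted p was under 0.05. The LY294002 column is red in 35 of 41 rows, and the strongest colours are in the Trichostatin A column, with Bmp2 at 1.72 and Ltbp2 at -2.31.

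RefSeq promoter sequences were matched for 29 of the 42 genes, giving 37 promoters of 300 bases, each from 250 bases before to 50 after a transcription start, on build GRCm38.p6. Their median GC content was 65.0%, against 52.7% for all 32851 promoters. The GC box GGGCGG, read on both strands, was found in 67.6% of them and in 35.7% of all promoters, and the GC-rich SMAD element GGCGCC in 29.7% and 11.9%; these 2 motifs can share bases. The palindromic SMAD element GTCTAGAC stood in 0.213% of all promoters and, among these genes, in that of Smad6 alone. The cyclic AMP response element TGACGTCA was found in that of Ltbp1 alone, against 1.79% of all, and the forkhead element TGTTTAC in none, against 3.65% of all. A match is a string of letters and not a shown binding site. Shown here, 5′ to 3′ with these motifs in capitals, are the promoters of 5 genes whose values are described at length: Smad6 and Bmp4, which rose in LY294002 and Trichostatin A; Tgfb2, which rose in Trichostatin A; and Gdf10 and Ltbp2, which rose in LY294002 and fell in Trichostatin A.
Smad6 (chr9:64022010-64022309, minus strand): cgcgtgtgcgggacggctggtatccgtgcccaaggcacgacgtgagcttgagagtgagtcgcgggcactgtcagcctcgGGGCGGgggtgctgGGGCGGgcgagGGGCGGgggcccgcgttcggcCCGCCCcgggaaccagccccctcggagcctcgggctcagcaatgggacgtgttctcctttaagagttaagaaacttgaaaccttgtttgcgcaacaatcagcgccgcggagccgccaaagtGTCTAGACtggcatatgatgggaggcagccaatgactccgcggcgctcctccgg
Bmp4 (chr14:46390620-46390919, minus strand): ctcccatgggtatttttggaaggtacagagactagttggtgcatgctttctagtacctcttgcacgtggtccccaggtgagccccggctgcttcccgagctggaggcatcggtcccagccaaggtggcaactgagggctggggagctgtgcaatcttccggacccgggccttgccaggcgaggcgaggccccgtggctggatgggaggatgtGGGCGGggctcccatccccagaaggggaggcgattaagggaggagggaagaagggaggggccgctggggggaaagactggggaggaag
Tgfb2 (chr1:186705940-186706239, minus strand): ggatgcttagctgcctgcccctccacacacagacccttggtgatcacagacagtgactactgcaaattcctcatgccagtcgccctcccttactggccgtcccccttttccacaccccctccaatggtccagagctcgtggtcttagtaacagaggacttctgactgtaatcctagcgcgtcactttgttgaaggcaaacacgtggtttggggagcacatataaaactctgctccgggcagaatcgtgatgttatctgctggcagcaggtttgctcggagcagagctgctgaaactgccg
Gdf10 (chr14:33923337-33923636, plus strand): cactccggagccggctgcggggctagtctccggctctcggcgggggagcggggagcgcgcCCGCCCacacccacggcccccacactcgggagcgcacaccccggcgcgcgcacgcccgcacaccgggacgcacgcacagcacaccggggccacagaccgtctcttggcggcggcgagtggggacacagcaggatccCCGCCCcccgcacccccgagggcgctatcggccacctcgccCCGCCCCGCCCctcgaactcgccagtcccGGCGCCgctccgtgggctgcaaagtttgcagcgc
Ltbp2 (chr12:84876442-84876741, minus strand): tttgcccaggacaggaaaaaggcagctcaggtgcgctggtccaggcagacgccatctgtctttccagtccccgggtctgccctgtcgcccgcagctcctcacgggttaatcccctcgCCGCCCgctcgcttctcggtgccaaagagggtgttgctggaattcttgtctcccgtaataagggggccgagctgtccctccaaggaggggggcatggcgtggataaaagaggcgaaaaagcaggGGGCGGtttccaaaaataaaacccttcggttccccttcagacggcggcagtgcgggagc
The Smad6 window carried the palindrome and 4 GC boxes, that of Gdf10 4 GC boxes and 1 GC-rich SMAD element, that of Ltbp2 2 GC boxes, that of Bmp4 1 GC box, and that of Tgfb2 none of the motifs.

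Among the ligands, Bmp4 rose in 3 comparisons. This BMP is made by chondrocytes and by the surrounding perichondrium. Its signal was 10.86, 10.70 and 10.58 in LY294002, 10.53, 10.42 and 10.42 in U0126, 9.68, 9.71 and 9.93 in SB202190, 11.17, 11.15 and 11.19 in Trichostatin A, and 10.10, 10.04 and 10.14 in DMSO. All arrays of LY294002, U0126 and Trichostatin A lay above all DMSO arrays, and all SB202190 arrays lay below them. The difference from DMSO was 0.62 ± 0.09 (SE, limma, adjusted p = 0.00066) in LY294002, 0.36 ± 0.09 (adjusted p = 0.0452) in U0126 and 1.08 ± 0.09 (adjusted p = 3.77e-08) in Trichostatin A. In SB202190 it was -0.32 (adjusted p = 0.0773). The U0126 call was lost when any of the 6 arrays of that comparison was left out (adjusted p = 0.0873 to 0.185, with differences of 0.33 to 0.39).

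Gdf10, a divergent member of the family also called BMP3b, was the only gene called with all 4 inhibitors. It read 9.66, 9.62 and 9.82 in LY294002, 9.60, 9.69 and 10.00 in U0126, 9.64, 9.89 and 9.86 in SB202190, 7.06, 7.10 and 7.52 in Trichostatin A, and 9.24, 9.09 and 9.17 in DMSO. The 9 arrays of the kinase inhibitors were all above DMSO, and the 3 Trichostatin A arrays were all below every other array. It rose by 0.53 ± 0.13 (SE, adjusted p = 0.0149) in LY294002, 0.60 ± 0.13 (adjusted p = 0.0176) in U0126 and 0.63 ± 0.13 (adjusted p = 0.0154) in SB202190, and it was 3.84-fold lower in Trichostatin A (limma, adjusted p = 2.22e-09). The 3 rises were not firm against single arrays. Each was lost without DMSO replicate 2 (0.49, 0.56 and 0.59, adjusted p = 0.0683, 0.0809 and 0.0746) and without DMSO replicate 3 (0.54, 0.60 and 0.63, adjusted p = 0.0508, 0.0614 and 0.0568), the U0126 call also without U0126 replicate 3 (0.48, adjusted p = 0.114), and the SB202190 call also without SB202190 replicate 2 or 3 (0.58 and 0.60, adjusted p = 0.0818 and 0.0656). The fall in Trichostatin A was called under all alternatives run.

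Trichostatin A raised 6 of the 12 ligands measured and lowered 2, against 27% and 22.7% of all genes. Bmp2, which promotes chondrocyte maturation, had signals of 9.12, 8.83 and 9.29 in Trichostatin A and 7.68, 7.03 and 7.37 in DMSO, a 3.29-fold rise (log2 difference 1.72 ± 0.14, SE, limma, adjusted p = 4.71e-08). The lowest Trichostatin A array was above the highest DMSO array, although the DMSO arrays themselves spread widely. Tgfb2 read 11.51, 11.34 and 11.76 in Trichostatin A, against 9.95, 9.75 and 9.88 in DMSO, a 3.20-fold rise (adjusted p = 1.74e-09), and its 3 other probe sets gave log2 differences of 1.39, 1.73 and 1.51, all called. Bmp6, a BMP of maturing chondrocytes, read 8.91, 8.72 and 9.09 in Trichostatin A and 7.72, 7.64 and 7.84 in DMSO, a 2.25-fold rise (adjusted p = 1.2e-05). Bmp7 rose by 0.47 ± 0.12 on the log2 scale (SE, adjusted p = 0.00308), and its 2 other probe sets by 0.62 and 0.58. Gdf5, a marker of the forming joint, went the other way, at 7.43, 7.46 and 7.67 in Trichostatin A, against 8.72, 8.45 and 8.51 in DMSO, a 2.06-fold fall (adjusted p = 4.95e-07). None of these 5 genes overlapped with DMSO in Trichostatin A, and none of these calls was lost under the alternatives run. The share of all genes without overlap was not counted, so absence of overlap is given as a description only.

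U0126 raised Tgfb3, a TGF-beta isoform. Its signal was 10.75, 10.71 and 10.68 in U0126 and 10.20, 10.19 and 10.07 in DMSO, with no overlap (0.56 ± 0.07, SE, limma, adjusted p = 0.000471). With LY294002 the Tgfb3 difference was 0.24 (adjusted p = 0.0578), and with SB202190 the values of 9.93, 10.01 and 9.99 lay below all DMSO arrays without passing the test. Tgfb3 in U0126 differed from LY294002, as the difference LY294002 minus U0126 was -0.32 (adjusted p = 0.0184), and U0126 minus SB202190 was 0.73 (adjusted p = 1.33e-05). Read by the probe sets used here, Tgfb1 and Bmp5 passed in no comparison with DMSO. Another Bmp5 probe set was lower in Trichostatin A (-0.48, limma, adjusted p = 0.00157). With the mean of its probe sets, Bmp5 was lower there too (adjusted p = 0.0421).

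The subunits of activin, the ligand that follistatin neutralises, fell in SB202190. Inhba, encoding the beta A subunit, read 8.56, 8.45 and 8.59 in SB202190, 10.44, 9.89 and 10.13 in Trichostatin A, and 9.24, 8.90 and 9.26 in DMSO. It was 1.51-fold lower in SB202190 (limma, adjusted p = 0.016) and 2.03-fold higher in Trichostatin A (adjusted p = 2.59e-06), with no overlap in either case. A second Inhba probe set gave log2 differences of -0.06 in SB202190 and -0.03 in Trichostatin A and did not follow the first in either. With the mean of both, the Inhba differences were -0.33 (adjusted p = 0.0241) and 0.50 (adjusted p = 4.39e-05). Inhbb, encoding the beta B subunit, read 7.16, 7.76 and 8.02 in SB202190, against 8.42, 8.44 and 8.45 in DMSO, a 1.73-fold fall (adjusted p = 0.0264) in which the SB202190 arrays spread far more than the DMSO arrays. The Inhba call in SB202190 was lost without DMSO replicate 3 or SB202190 replicate 1 or 2 (-0.53, -0.61 and -0.56, adjusted p = 0.0871, 0.0616 and 0.0832). The Inhbb call was lost without DMSO replicate 2 or 3 or SB202190 replicate 1 or 2 (-0.79, -0.78, -0.55 and -0.85, adjusted p = 0.0889, 0.0923, 0.121 and 0.0657).

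**Figure D3:**
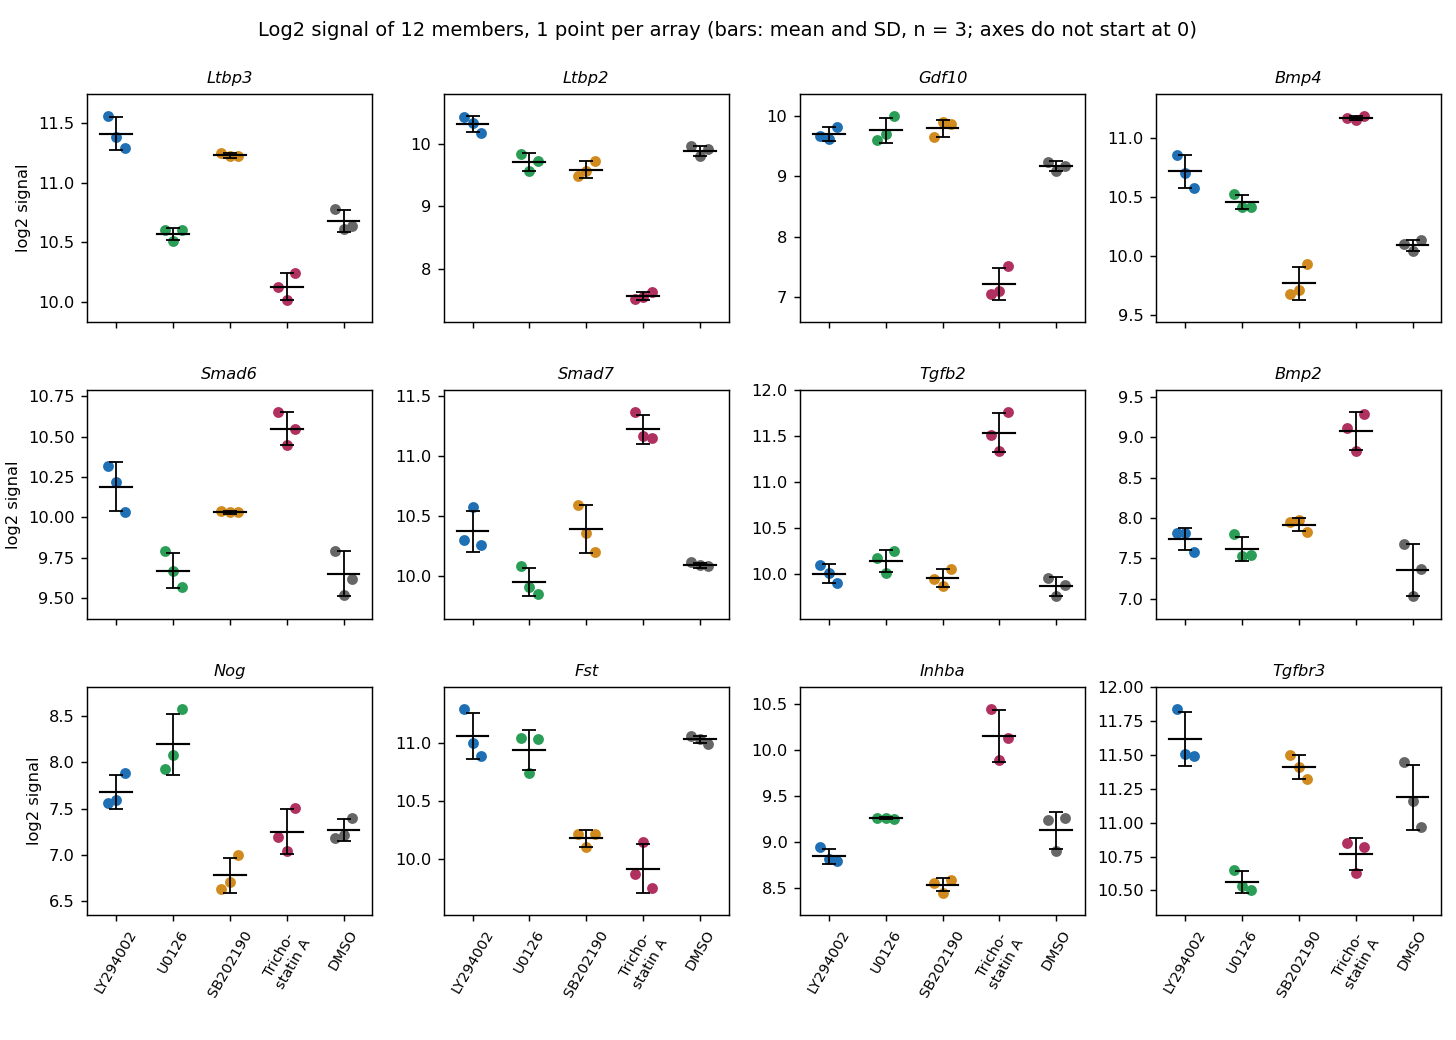
Log2 signal of 12 signaling genes in every array (points), with the mean and SD of the 3 arrays of each group (bars), for the 4 inhibitors and DMSO; vertical axes differ between panels and do not start at 0. Gdf10 and Ltbp2 lie far below all other groups in Trichostatin A, at means of 7.22 and 7.57, whereas Bmp2 and Tgfb2 lie above all of them at 9.08 and 11.54.

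In LY294002 5 of the 11 receptor genes rose, against 8.85% of all genes. Tgfbr1, the type I receptor of TGF-beta, read 11.20, 10.96 and 10.85 in LY294002 and 10.54, 10.22 and 10.23 in DMSO, a 1.60-fold rise (0.67 ± 0.11, SE, limma, adjusted p = 0.00174). The groups did not overlap, and this call held under all alternatives run. Its 2 other probe sets gave 0.24 and 0.07 and did not pass. Bmpr2, the type II receptor of BMPs, read 11.09, 10.84 and 10.77 in LY294002, 10.75, 10.81 and 11.01 in Trichostatin A, and 10.61, 10.35 and 10.18 in DMSO. It rose by 0.53 ± 0.12 in LY294002 (SE, adjusted p = 0.0128) and by 0.48 ± 0.12 in Trichostatin A (adjusted p = 0.00383), in both cases without overlap. Its LY294002 call was lost without DMSO replicate 2 or 3 or LY294002 replicate 1 (0.51, 0.42 and 0.43, adjusted p = 0.0515, 0.0758 and 0.0737), and both calls were lost when the mean of all its probe sets was used (0.22 and 0.16, adjusted p = 0.0731 and 0.0907).

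Tgfbr3, or betaglycan, the co-receptor that presents TGF-beta2, had calls in 3 comparisons and in both directions. It read 11.84, 11.51 and 11.49 in LY294002, 10.65, 10.53 and 10.50 in U0126, 10.85, 10.63 and 10.82 in Trichostatin A, and 11.45, 11.16 and 10.97 in DMSO. LY294002 arrays were all above DMSO, whereas U0126 and Trichostatin A arrays were all below. The difference was 0.43 ± 0.12 in LY294002 (SE, limma, adjusted p = 0.0366), -0.63 ± 0.12 in U0126 (adjusted p = 0.00863) and -0.42 ± 0.12 in Trichostatin A (adjusted p = 0.009). A second Tgfbr3 probe set gave -0.01 in LY294002 (adjusted p = 0.973) and -0.35 in U0126 (adjusted p = 0.0831), neither called. In Trichostatin A it was lower too (-0.28, adjusted p = 0.0278). The calls of the first probe set depended on single arrays. The LY294002 call was lost without DMSO replicate 2 or 3 or LY294002 replicate 1 or 2 (0.41, 0.31, 0.31 and 0.48, adjusted p = 0.12, 0.176, 0.185 and 0.0531), the U0126 call without U0126 replicate 3 (-0.60, adjusted p = 0.0508) and the Trichostatin A call without DMSO replicate 1 (-0.29, adjusted p = 0.0505). The direct difference, LY294002 minus U0126, was 1.06 ± 0.12 (adjusted p = 0.000112).

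Tgfbr2, the type II receptor of TGF-beta, also rose in LY294002 and fell in Trichostatin A, by less than Tgfbr3. It did not fall in U0126 (0.07, limma, adjusted p = 0.93). It read 12.09, 12.06 and 12.03 in LY294002, 11.34, 11.33 and 11.44 in Trichostatin A, and 11.85, 11.71 and 11.61 in DMSO, again with no overlap. It rose by 0.34 ± 0.09 in LY294002 (SE, limma, adjusted p = 0.0224), and in Trichostatin A it was 1.28-fold lower (adjusted p = 0.00297). The LY294002 call was lost without DMSO replicate 2 or 3 or LY294002 replicate 1 or 2 (0.33, 0.28, 0.32 and 0.34, adjusted p = 0.076, 0.113, 0.0804 and 0.0589). It was also lost, with a smaller difference, under quantile normalization (0.18, adjusted p = 0.13) and with the mean of all Tgfbr2 probe sets (0.12, adjusted p = 0.353), as a second probe set gave -0.05. Bmpr1a, a type I receptor of BMPs, rose by 0.36 ± 0.10 in LY294002 (adjusted p = 0.0277), a call lost without the same 4 arrays (0.32 to 0.36, adjusted p = 0.0675 to 0.116) and under quantile normalization (0.24, adjusted p = 0.0837). In Trichostatin A its 3 other probe sets with calls were lower (-0.39, -0.28 and -0.32), while the one used here gave 0.05. Eng, the co-receptor endoglin, fell in Trichostatin A by 0.62 ± 0.08 (adjusted p = 3.67e-06), and a second probe set by 0.68. Tgfbr1 rose there by 0.35 (adjusted p = 0.0166), a call lost without DMSO replicate 2 or 3 or Trichostatin A replicate 3 (0.30 each, adjusted p = 0.0719, 0.0696 and 0.0693) and with the mean of all its probe sets (0.15, adjusted p = 0.23), of which the 2 others gave 0.10 and -0.01. Read by the probe sets used here, Acvr1, Acvr2a, Acvr2b, Acvrl1 and Bmpr1b passed in no comparison with DMSO. Another probe set of Acvr2a (-0.34, limma, adjusted p = 0.00442) and of Bmpr1b (-0.36, adjusted p = 0.0178) was lower in Trichostatin A. With the mean of its probe sets, Acvrl1 was lower in LY294002 (adjusted p = 0.0301) and in Trichostatin A (adjusted p = 0.0447). Acvr1 was lower in Trichostatin A under quantile normalization, with its probe set mean and without Trichostatin A replicate 3. In LY294002 Acvr1 was higher without DMSO replicate 1 (adjusted p = 0.0262).

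Of the 5 signal-carrying SMADs, 1 rose in LY294002 and 1 in Trichostatin A, against 8.85% and 27% of all genes. Their median difference in LY294002 was 0.31, against 0.24 over all 41 genes, and with the replicate block Smad1 and Smad4 passed there as well as Smad3. Smad3, the SMAD of TGF-beta and activin, read 10.28, 10.04 and 10.16 in LY294002 and 9.72, 9.76 and 9.67 in DMSO, a rise of 0.45 ± 0.08 (SE, limma, adjusted p = 0.00252) with no overlap. Leaving out any single array kept this call, but its 2 other probe sets gave 0.11 and -0.07, and with the mean of its probe sets the difference was 0.16 (adjusted p = 0.175). Smad4, the partner SMAD, was called only in Trichostatin A, at 0.37 ± 0.12 (adjusted p = 0.0238), where its arrays of 11.13, 11.02 and 11.28 overlapped with the DMSO arrays of 11.02, 10.65 and 10.65. That call was lost without DMSO replicate 2 or 3 or Trichostatin A replicate 1 or 3 (0.31, 0.31, 0.38 and 0.30, adjusted p = 0.0989, 0.0932, 0.0511 and 0.104). Without the block, Smad1, Smad2 and Smad5 passed in no comparison with DMSO, and their differences lay between -0.18 and 0.31. With the block, Smad5 was higher (limma, adjusted p = 0.0196) and Smad2 lower (adjusted p = 0.0492) in Trichostatin A, where the number was not taken as a pairing. Another Smad5 probe set was lower in Trichostatin A (-0.33, limma, adjusted p = 0.00555), while the one used here gave 0.26.

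The inhibitory SMADs, which are both targets and brakes of the pathway, changed more. Smad6, which restrains BMP signaling, read 10.32, 10.22 and 10.03 in LY294002, 9.79, 9.67 and 9.57 in U0126, 10.04, 10.03 and 10.03 in SB202190, 10.65, 10.45 and 10.55 in Trichostatin A, and 9.79, 9.52 and 9.62 in DMSO. All arrays of LY294002, SB202190 and Trichostatin A lay above DMSO, while U0126 and DMSO overlapped. Smad6 rose by 0.54 ± 0.10 in LY294002 (SE, limma, adjusted p = 0.00273), 0.39 ± 0.10 in SB202190 (adjusted p = 0.0496) and 0.90 ± 0.10 in Trichostatin A (adjusted p = 7.83e-07). The SB202190 call sat at the threshold and was lost without any one of DMSO replicates 2 and 3 or the SB202190 arrays (0.32 to 0.39, adjusted p = 0.132 to 0.211). Smad7, which restrains both branches, read 11.36, 11.16 and 11.15 in Trichostatin A and 10.12, 10.09 and 10.08 in DMSO, a 2.19-fold rise (adjusted p = 2.5e-07) that a second probe set shared (0.93). The Smad7 difference was 0.28 in LY294002, -0.15 in U0126 and 0.29 in SB202190, none of which passed, while the second probe set was higher in LY294002 (0.53, adjusted p = 0.0463) with overlapping arrays.

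Antagonists fell or did not pass in Trichostatin A and SB202190, and a single one rose in U0126. Nog, encoding the BMP antagonist noggin, read 7.93, 8.08 and 8.57 in U0126, 6.63, 6.71 and 7.00 in SB202190, and 7.18, 7.22 and 7.40 in DMSO. It was 1.90-fold higher in U0126 (0.93 ± 0.16, SE, limma, adjusted p = 0.00355) with no overlap, and this call held under all alternatives run. In SB202190 all 3 arrays lay below DMSO without passing the test (-0.48, adjusted p = 0.152), and U0126 minus SB202190 was 1.41 ± 0.16 (adjusted p = 2.93e-05), the largest difference of any signaling gene between these inhibitors.

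Fst, encoding the activin-binding follistatin, read 10.22, 10.11 and 10.22 in SB202190, 9.87, 10.15 and 9.75 in Trichostatin A, and 11.06, 11.03 and 10.99 in DMSO. It was 1.80-fold lower in SB202190 (limma, adjusted p = 0.00107) and 2.15-fold lower in Trichostatin A (adjusted p = 7.27e-07), and a second probe set gave -0.75 and -1.12. Neither group overlapped with DMSO, and both calls held under all alternatives run. In LY294002 and U0126 the Fst differences were 0.04 and -0.09. Bambi, a decoy receptor, read 9.01, 8.93 and 9.41 in Trichostatin A, against 9.92, 9.67 and 9.98 in DMSO, a 1.67-fold fall (adjusted p = 0.000397) with no overlap. Grem1, encoding the BMP antagonist gremlin, was 1.54-fold lower in Trichostatin A (adjusted p = 9.36e-05). Chrd, encoding chordin, passed in no comparison with DMSO.

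All 4 latent TGF-beta binding proteins were called in Trichostatin A, 3 lower and 1 higher, against 22.7% and 27% of all genes. Ltbp3 read 11.56, 11.38 and 11.29 in LY294002, 10.60, 10.51 and 10.60 in U0126, 11.25, 11.22 and 11.22 in SB202190, 10.13, 10.02 and 10.24 in Trichostatin A, and 10.78, 10.61 and 10.64 in DMSO. LY294002 and SB202190 arrays were all above DMSO, Trichostatin A arrays all below, and U0126 arrays below every DMSO array without passing. Ltbp3 rose by 0.73 ± 0.09 in LY294002 (SE, limma, adjusted p = 0.000144) and by 0.56 ± 0.09 in SB202190 (adjusted p = 0.00329), and it was 1.46-fold lower in Trichostatin A (adjusted p = 6.82e-05). A second Ltbp3 probe set gave 0.78, 0.60 and -0.43, all called, and all 3 calls held under the alternatives run.

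Ltbp2, known from elastic fibres and fibrillin microfibrils, showed the largest change of the gene set. It read 10.43, 10.34 and 10.18 in LY294002, 7.52, 7.56 and 7.64 in Trichostatin A, and 9.96, 9.80 and 9.91 in DMSO. In Trichostatin A it was 4.97-fold lower than in DMSO (log2 difference -2.31 ± 0.10, SE, limma, adjusted p = 1.25e-11), and in LY294002 it was higher by 0.43 ± 0.10 (adjusted p = 0.0113), with no overlap in either. The LY294002 call was lost without DMSO replicate 2 or LY294002 replicate 1 (0.39 and 0.37, adjusted p = 0.0585 and 0.0604). Ltbp1, which binds TGF-beta into the latent complex, read 10.64, 10.29 and 10.35 in U0126, 9.35, 9.49 and 9.51 in Trichostatin A, and 11.14, 10.85 and 10.86 in DMSO. It was 2.83-fold lower in Trichostatin A (adjusted p = 2.15e-08), while a second probe set fell by 0.24 on the log2 scale, and it was 1.44-fold lower in U0126 (adjusted p = 0.026). The U0126 call was lost without DMSO replicate 1 or 3 or U0126 replicate 2 or 3 (-0.43, -0.57, -0.46 and -0.49, adjusted p = 0.099, 0.053, 0.122 and 0.132). Ltbp4 was the exception in Trichostatin A, with a rise of 0.82 ± 0.09 (adjusted p = 1.13e-06).

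Of the ubiquitin ligases that mark SMADs and receptors for degradation, Smurf2 rose by 0.49 ± 0.11 in LY294002 (SE, limma, adjusted p = 0.0118) and by 0.68 ± 0.11 in Trichostatin A (adjusted p = 8.07e-05). The LY294002 arrays of 11.54, 11.28 and 11.48 and the Trichostatin A arrays of 11.49, 11.59 and 11.79 all lay above the DMSO arrays of 11.06, 10.79 and 10.98. The LY294002 call was lost without DMSO replicate 2 or LY294002 replicate 1 (0.41 and 0.44, adjusted p = 0.0679 and 0.0602), and with the mean of all probe sets it was 0.27 (adjusted p = 0.0896). Smurf1 was 1.21-fold lower in Trichostatin A (adjusted p = 0.0256), and that call was lost without DMSO replicate 3 or Trichostatin A replicate 2 (-0.25 and -0.24, adjusted p = 0.0806 and 0.0838).

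The inhibitors were also set against each other, since a gene that passed with one and not with another need not differ between them. LY294002 was higher than U0126 in 9 genes and lower in 1, against 4.91% and 2.36% of all genes. With the replicate block, for which no share of all genes was counted, these counts were 16 and 4, and Tgfbr3 and Ltbp3 led them (1.06 and 0.84). Against SB202190, LY294002 was higher in 10 genes and lower in none, against 3.81% and 2.19% of all genes, and at an unadjusted p under 0.05 it was higher in 20 and lower in none. The largest of these differences were Inhbb at 1.01 ± 0.17 (SE, limma, adjusted p = 0.00248), Bmp4 at 0.94 ± 0.09 (adjusted p = 1.68e-05), Nog at 0.89 ± 0.16 (adjusted p = 0.0028) and Fst at 0.88 ± 0.12 (adjusted p = 0.000341). LY294002 and SB202190 did not differ past the threshold in Ltbp3 (0.18, 95% interval -0.01 to 0.36), Smad6 (0.16, -0.05 to 0.36) or Gdf10 (-0.09, -0.36 to 0.17).

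U0126 and SB202190, which the description of the series groups together, differed in 13 of the 41 genes. U0126 was higher in 7 and lower in 6, against 3.59% and 3.32% of all genes. The ligands Tgfb3, Bmp4, Bmp6 and Inhba (0.73, 0.68, 0.73 and 0.72) and the antagonists Nog, Fst and Grem1 (1.41, 0.76 and 0.44) were higher in U0126. The inhibitory SMADs Smad6 and Smad7 (-0.36 and -0.44), the binding proteins Ltbp1 and Ltbp3 (-0.48 and -0.66), Tgfbr3 (-0.85) and Smurf1 (-0.34) were lower in U0126. Leaving out 1 array gave 6 to 7 higher and 2 to 5 lower, the fewest lower without U0126 replicate 2.

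Trichostatin A differed from each kinase inhibitor in more genes. It was higher than LY294002 in 9 and lower in 18, against 23% and 23.6% of all genes, higher than U0126 in 11 and lower in 14, against 25.9% and 23.5%, and higher than SB202190 in 14 and lower in 10, against 24.3% and 20.6%. The lower genes included Gdf10, Ltbp1, Ltbp2, Ltbp3, Gdf5, Bambi, Eng and Tgfbr2 against all 3 kinase inhibitors. Ltbp2 was 6.70-fold lower than in LY294002, and Gdf10 5.57-fold lower. The genes higher than in all 3 included Bmp2, Tgfb2, Bmp4, Bmp6, Bmp7, Inhba, Smad6, Smad7 and Ltbp4.

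Genes known to respond to the pathway were read from a further list of 18 that holds Smad6, Smad7 and Bambi, which are also among the 41. LY294002 raised 10 and lowered none, against 8.85% and 2.21% of all genes. U0126 raised none and lowered 1 (4 higher and 1 lower at an unadjusted p under 0.05 in limma), against 1.66% and 1.02%, and SB202190 raised 3 and lowered 1, against 1.7% and 1.01%. Trichostatin A raised 10 and lowered 3, against 27% and 22.7%. The ID genes, inhibitors of basic helix-loop-helix factors and direct BMP targets, were among the genes called with each inhibitor. Id1 read 11.61, 11.50 and 11.20 in LY294002, 10.43, 10.36 and 10.20 in U0126, 12.52, 12.31 and 11.97 in Trichostatin A, and 11.14, 10.94 and 10.83 in DMSO. It was higher in LY294002 (0.47 ± 0.13, SE, limma, adjusted p = 0.041) and in Trichostatin A (1.30, adjusted p = 5.99e-07), and lower in U0126 (-0.64, adjusted p = 0.0185), with no overlap in any. Id2 was higher by 0.71 ± 0.15 in SB202190 (adjusted p = 0.0192) and 1.50 ± 0.15 in Trichostatin A (adjusted p = 3.27e-07). Id3 was higher by 0.64 in SB202190 (adjusted p = 0.00476) and 0.56 in LY294002 (adjusted p = 0.00457). Id4 was higher by 0.86 in LY294002 (adjusted p = 0.00032), and Atoh8, a BMP target, by 0.59 (adjusted p = 0.000985). Pmepa1, a TGF-beta target that acts as a feedback inhibitor, was lower in SB202190 (-0.81, adjusted p = 0.00522) and in Trichostatin A (-0.87, adjusted p = 5.95e-05).

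**Figure D4:**
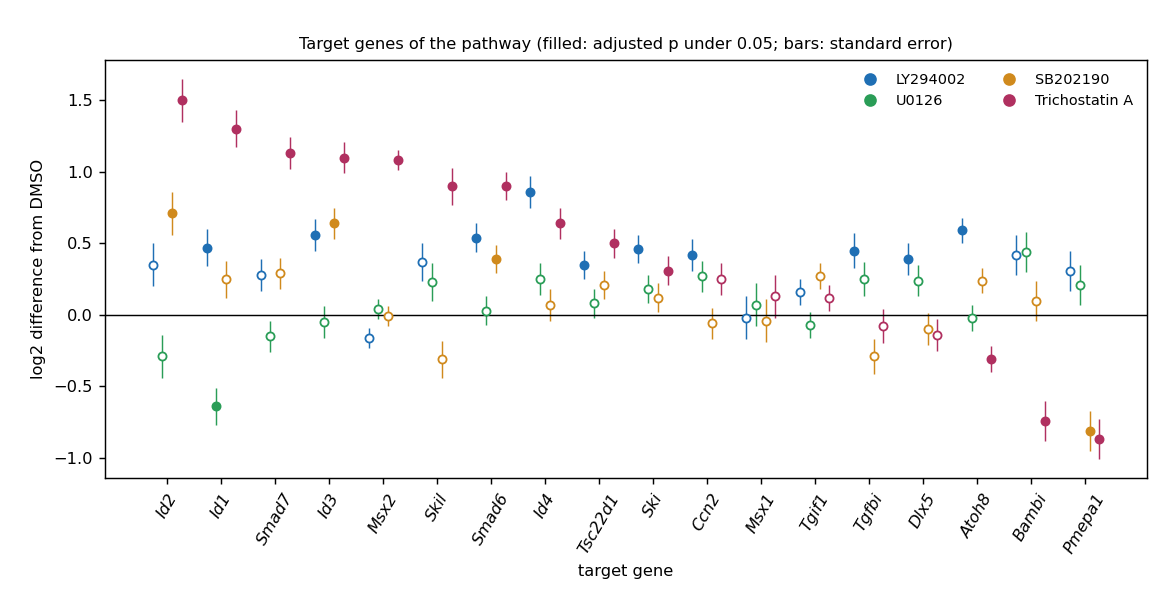
Log2 difference from DMSO of 18 target genes with each inhibitor, ordered by the difference in Trichostatin A; bars are the standard error from limma, and filled points had an adjusted p under 0.05. LY294002 points are filled and above 0 for 10 genes, and the only filled U0126 point is that of Id1 at -0.64.

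The remaining pathway genes were counted from lists of other ligands, receptors, extracellular regulators and intracellular regulators. Of 22 other extracellular regulators tested, LY294002 raised 6 and lowered 2, against 8.85% and 2.21% of all genes, U0126 raised 3 and lowered none, against 1.66% and 1.02%, and SB202190 raised none and lowered 3, against 1.7% and 1.01%. Trichostatin A raised 7 and lowered 7, near the 27% and 22.7% of all genes. Sostdc1, a BMP and Wnt antagonist, was higher in LY294002 (0.98 ± 0.12, SE, limma, adjusted p = 0.000144) and in U0126 (0.56, adjusted p = 0.0173). Chrdl1, a chordin-like BMP antagonist, was higher in U0126 (1.31 ± 0.12, adjusted p = 1.07e-05) and in LY294002 (0.53, adjusted p = 0.0093). Fmod, encoding the matrix proteoglycan fibromodulin that binds TGF-beta, was higher in U0126 (0.99, adjusted p = 0.000212) and lower in SB202190 (-0.50, adjusted p = 0.0431), and Bmper, a BMP-binding protein, was lower in SB202190 (-0.57, adjusted p = 0.00755). Emilin1, an elastic fibre protein that limits TGF-beta processing, was lowest in Trichostatin A, at 7.22, 7.47 and 7.22, against 10.60, 10.58 and 10.28 in DMSO (-3.19 ± 0.11, adjusted p = 1.12e-12). Htra1, a secreted protease, and Crim1, a BMP-binding membrane protein, were higher there (1.43 and 1.35).

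The other lists held few calls outside Trichostatin A. Of 22 other intracellular regulators, LY294002 raised 2, Ski (0.46) and Xiap (0.45), near the 8.85% of all genes. U0126 and SB202190 changed none (none in U0126, and 2 higher and 1 lower in SB202190, at an unadjusted p under 0.05 in limma). Trichostatin A raised 10 and lowered 4, against 27% and 22.7% of all genes. Skil and Ski, co-repressors of SMADs, and Trim33, a ubiquitin ligase of Smad4, were among the genes that rose (0.90, 0.31 and 0.74). Of 15 other ligands, LY294002 raised 1, Bmp1, a protease that cuts chordin (0.31), against 8.85% of all genes. Trichostatin A raised 2 of these ligands and lowered 3, against 27% and 22.7%. Of 9 other receptors and co-receptors, LY294002 raised Neo1, encoding neogenin (0.54), and Acvr1b, the activin type I receptor (0.48), against 8.85% of all genes. U0126 raised Scube3 (0.71) and Neo1 (0.39), against 1.66%, and Trichostatin A raised Acvr1b (0.37), against 27%.

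Signaling genes that had more than 1 probe set allowed a check within the arrays. Of 16 other probe sets of the genes called in LY294002, 2 had the same call, none the opposite call, 9 the same sign without passing and 5 the opposite sign. Of 22 in Trichostatin A, 15 had the same call, none the opposite call, 4 the same sign and 3 the opposite sign. Of 4 in SB202190, 2 had the same call and 2 the same sign, and both in U0126 had the same sign. With the mean of all probe sets, further calls held at values more than 1.5 times smaller. In LY294002 these were Tgfbr1 (0.33), Tgfbr3 (0.21), Bmpr1a (0.21) and Ltbp3 (0.44), in SB202190 Inhbb (-0.51) and Ltbp3 (0.37), and in Trichostatin A Ltbp1 (-0.77), Ltbp3 (-0.28) and Smurf2 (0.44).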

How the data were processed

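Total RNA of 15 primary chondrocyte cultures was hybridised to Affymetrix mouse genome arrays, 3 per treatment. The deposited values were log2 signals per probe set that the authors had background-corrected, normalized and summarised; whether GC-RMA or the RMAExpress software gave this table is not settled by the sources used here. Values ran from 3.02 to 14.4, with array medians between 6.90 and 7.00. The precision is limited by the number of arrays.

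The 64 array control probe sets were removed from 45101, and of the 45037 left, 34945 named a single gene, 932 named several and 9160 named no gene. Those naming several were given to none. A mean per treatment was fitted to all 15 arrays with limma 3.58.1 in R 4.3.3 (10 residual degrees of freedom). Probe sets were tested where the mean of either group was at least a signal of 50 (log2 5.64), and p-values were adjusted over all of them by Benjamini-Hochberg. Exact permutation of 3 against 3 arrays cannot go below p = 0.1 and was not used. The script was tested on simulated data. p-values measure the spread between these cultures.

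The genes and all lists were chosen with earlier results of these data known. Values in every array are given for up to 6 higher and 6 lower genes per comparison with DMSO, for genes called in opposite directions and for those called in at least 3 of the 4 comparisons, and for others where a limit needs them; of each further list, up to 3 called genes per comparison are named. Whether equal replicate numbers pair the arrays was checked with the correlation of deviations from the group means. It was 0.405 to 0.769 for LY294002, 0.328 to 0.718 for U0126 and 0.237 to 0.325 for SB202190 against DMSO, but 0.0284 to 0.474 for Trichostatin A, where the number was not taken as a pairing. Alternatives were the replicate block, only the arrays compared, no filter, a floor of 100 or a floor on the mean of all arrays, quantile normalization, median centring, a trended robust prior, averaging a gene's probe sets and leaving out each array. Array control spots and the sequences of genes without a RefSeq match were left out. Promoters were taken from RefSeq on build GRCm38.p6.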

Additional observations from a re-analysis of the deposited data

How the results depend on the processing

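No difference of a called gene changed sign under any alternative run. Of the calls against DMSO, 4 of 12 in LY294002 (Ltbp3, Tgfbr1, Bmp4 and Smad6), 2 of 6 in U0126 (Tgfb3 and Nog), 2 of 6 in SB202190 (Fst and Ltbp3) and 20 of 25 in Trichostatin A passed under every alternative. The number of arrays, 3 per group, limits the precision. With the replicate number as a block, the numbers of genes higher and lower were 21 and 0 for LY294002 and 5 and 6 for SB202190 against DMSO. They were 16 and 4 for LY294002 against U0126, and no other count moved by more than 1.5 times. The share of all genes was not counted with the block. With only the arrays of the 2 groups compared, which leaves fewer arrays to estimate the spread, 5 genes were higher in LY294002, and 2 were higher and 0 lower in U0126. Quantile normalization gave 1 gene lower in LY294002, 6 lower in SB202190, and 2 lower in LY294002 against U0126. Centring each array on its median gave 1 gene lower in U0126. Averaging each gene's probe sets gave 2 genes lower in LY294002, 5 lower in SB202190, and 3 lower in LY294002 against U0126. Without the Trichostatin A arrays, an alternative chosen after seeing the data, 2 genes were lower in LY294002 against U0126. The cause was not tested.

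Leaving out 1 array at a time gave 5 to 17 genes higher and 0 lower in LY294002 (fewest without DMSO replicate 2, most without DMSO replicate 1), 2 to 3 higher and 0 to 2 lower in U0126 (no gene lower without U0126 replicate 3), 1 to 4 higher and 1 to 4 lower in SB202190, and 11 to 14 higher and 11 to 13 lower in Trichostatin A. In SB202190 1 gene was higher without DMSO replicate 2 or 3 or SB202190 replicate 2 or 3, and 1 was lower without SB202190 replicate 1 or 2. In U0126 2 genes were higher without DMSO replicate 2 or 3 or U0126 replicate 3, and 1 was lower without DMSO replicate 1 or 3 or U0126 replicate 2. Between inhibitors, the range was 6 to 9 higher and 0 to 2 lower for LY294002 against U0126 (0 without LY294002 replicate 2, 2 without U0126 replicate 1), 7 to 10 and 0 for LY294002 against SB202190, 6 to 7 and 2 to 5 for U0126 against SB202190, 9 and 15 to 18 for Trichostatin A against LY294002, 11 to 14 and 13 to 15 against U0126, and 12 to 15 and 10 to 11 against SB202190.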

Other observations

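Follistatin has a close relative, Fstl3, that also binds activin, and the 2 genes differed in Trichostatin A. Fstl3 read 7.71, 7.72 and 7.68 in LY294002, 7.59, 7.61 and 7.85 in SB202190, 8.94, 8.73 and 9.03 in Trichostatin A, and 7.97, 8.08 and 8.19 in DMSO. All LY294002 and SB202190 arrays lay below DMSO and all Trichostatin A arrays above. The log2 difference of Fstl3 was -0.38 ± 0.10 in LY294002 (SE, limma, adjusted p = 0.0218), -0.40 ± 0.10 in SB202190 (adjusted p = 0.0421) and 0.82 ± 0.10 in Trichostatin A (adjusted p = 2.31e-06), whereas Fst fell by 1.11 on the log2 scale in Trichostatin A. Fstl3 was described after its values were seen.

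Among the small matrix proteoglycans that bind TGF-beta outside the cell, Dcn, Bgn and Fmod were lower in Trichostatin A, where 22.7% of all genes fell. Dcn, encoding decorin, read 10.69, 10.44 and 11.00 in Trichostatin A and 11.65, 11.64 and 11.61 in DMSO (-0.92 ± 0.12, SE, limma, adjusted p = 6.93e-06). Bgn, encoding biglycan, read 12.17, 12.21 and 12.09 in Trichostatin A and 13.19, 13.05 and 12.80 in DMSO (-0.86 ± 0.10, adjusted p = 1.86e-06), and Fmod was lower too (log2 difference -1.38, adjusted p = 8.06e-08). None of these groups overlapped. Dcn and Bgn were chosen after their values were seen.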
